A study of Mus musculus with 4 samples.

Results

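The Hox genes of cultured mouse ureters were described across 8 RNA pools. The members were all genes whose array name was Hoxa, Hoxb, Hoxc or Hoxd followed by a number. They came to 39 of the 29924 gene names on the array, with 11 genes in the Hoxa cluster, 10 in the Hoxb cluster, 9 in the Hoxc cluster and 9 in the Hoxd cluster. All 39 had at least 1 probe, and 45 probes carried a member's name.

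Hox genes encode homeodomain transcription factors that lie in 4 clusters, and the order of the genes along a cluster follows the order in which they are used along the body axis. Genes with the same number in different clusters are paralogs: low numbers are used towards the head and high numbers towards the tail. In the urogenital tract the paralogs numbered 11 are known for their part in forming the metanephric kidney, Hoxa13 and Hoxd13 act in the most caudal parts of the tract, and the promoter of Hoxb7 is widely used to drive transgenes in the nephric duct and the epithelium that grows from it. Sonic hedgehog (SHH) is the signal that the ureteric epithelium sends to the surrounding mesenchyme.

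Ureters of NMRI mice, an outbred strain, were explanted at P0 and kept in culture for 8 d with 2 µM purmorphamine, an agonist of the SHH pathway, or with its solvent DMSO at 1:1000. The Pparg-cKO ureters (Pax2-cre/+; Pparg (fl/fl)) carried a floxed Pparg allele and the Pax2-cre transgene, which recombines in the nephric duct, the ureteric epithelium and the collecting ducts. The mesenchyme is not among the sites that the study names for this driver. Controls were cre-negative littermates labelled Pparg (fl/?), so that they also carried the floxed allele. Each of the 4 arrays compared a purmorphamine pool with a DMSO pool of the same genotype and sex. Replicate 1 was male in both genotypes and had purmorphamine in AlexaFluor647, and replicate 2 was female and had the dyes swapped. Every group of genotype and treatment therefore held 2 pools, 1 male and 1 female, and sex and dye orientation cannot be told apart within a group. The sources do not give the number of ureters in a pool, and p-values measure only the spread between these pools.

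Between 66.3% and 70.5% of spots were well above background in each channel, and no spot was saturated. The single Pparg probe gave log2 intensities of 14.79 and 15.31 in the control DMSO pools, 15.55 and 15.58 in the Pparg-cKO DMSO pools, 15.10 and 15.18 in the control purmorphamine pools and 15.95 and 16.10 in the Pparg-cKO purmorphamine pools. It does not check the genotype, because the deletion removes exons 2 and 3 only and a shortened message can still be made. Shh, the gene of the SHH ligand, was lower in Pparg-cKO with DMSO by a log2 difference of -2.93 (SE 0.23, adjusted p = 0.00226). Over both genotypes purmorphamine raised the pathway targets Ptch1 (log2 1.31, adjusted p = 0.00506), Gli1 (1.20, adjusted p = 0.0180) and Hhip (1.76, adjusted p = 0.00646). All 11 urothelial markers and all 11 ureteric smooth muscle and mesenchymal markers listed were well above background in all 8 pools. The male Pparg-cKO purmorphamine pool stood apart in 4 fat genes, with a summed log2 intensity of 14.37 against 16.65 to 18.12 in the other 7 pools.

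Sequences are shown first for the probes that stand for Hoxb9, Hoxb3, Hoxd3 and Hoxd4, so that the part of each transcript that was measured can be seen. Each line gives the first 30 bases of the 60-base probe as the scanner files list it. The positions, on the mm9 build used by the array design, are chr11:96137748-96137777 for Hoxb9, chr11:96209002-96209031 for the brighter probe of Hoxb3, chr2:74585787-74585816 for Hoxd3 and chr2:74566866-74566895 for Hoxd4. All of them are on the plus strand.
Hoxb9: gcttgtgttttgtgatttctttggcagtga
Hoxb3 brighter probe: tattgtattctagacaagagctgtagattt
Hoxd3: tagttgatgttaaaggattgagatcacaaa
Hoxd4: tcatatggcaggagctactgagaacataaa
A second probe of Hoxb3 starts in the homeobox, the part of the gene that is conserved among Hox genes, and is called the homeobox probe here. Whether transcripts of other members bind it was not tested.

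Promoters were looked up for the members with a called or counted difference, since Hoxd3 and Hoxd4 are neighbours and both were higher in Pparg-cKO with DMSO under the fold rule of the methods. The RefSeq table, on GRCm38.p6, held windows for 22 of the 39 members, Hoxd3, Hoxd4 and Hoxa10 among them. It held none for Hoxb3, Hoxb5, Hoxb7, Hoxb9 and Hoxc13, so the promoters of these members were not searched. The 250 bases upstream of the start are shown for Hoxd3 (chr2:74711743-74711992, plus strand), for Hoxd4 (chr2:74721728-74721977, plus strand) and for 1 of the 2 starts that the table gives for Hoxa10 (chr6:52234940-52235189, minus strand). Capitals mark a nuclear receptor half-site (AGGTCA or, on the other strand, TGACCT) or a TATA motif (TATAAA or TTTATA).
Hoxd3: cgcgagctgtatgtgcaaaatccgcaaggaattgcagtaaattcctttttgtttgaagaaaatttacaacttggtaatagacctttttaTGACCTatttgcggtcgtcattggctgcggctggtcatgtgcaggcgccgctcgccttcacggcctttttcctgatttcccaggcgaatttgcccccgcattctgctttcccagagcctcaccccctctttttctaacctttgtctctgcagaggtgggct
Hoxd4: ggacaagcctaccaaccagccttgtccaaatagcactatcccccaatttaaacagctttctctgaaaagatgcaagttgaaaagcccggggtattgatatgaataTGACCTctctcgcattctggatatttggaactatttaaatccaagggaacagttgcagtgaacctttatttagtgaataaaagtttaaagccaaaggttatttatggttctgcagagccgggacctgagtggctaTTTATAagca
Hoxa10: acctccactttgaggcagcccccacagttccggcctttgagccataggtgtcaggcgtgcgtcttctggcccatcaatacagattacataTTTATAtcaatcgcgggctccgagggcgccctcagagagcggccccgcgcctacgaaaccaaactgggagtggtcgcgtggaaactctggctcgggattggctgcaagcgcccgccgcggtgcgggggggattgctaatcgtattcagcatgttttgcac
A half-site was found in 6 of the 24 member windows, or 25%, in Hoxb4, Hoxc4, Hoxd3, Hoxd4, Hoxd8 and Hoxd10, and in 14% of all 32851 windows of this length. The TATA motif was in 4 of the 24, or 16.7%, and in 12.4% of all windows. The GLI motif (GACCACCCA or TGGGTGGTC) was in 0 of the 24 and in 0.225% of all windows. A MEIS motif (TGACAG or CTGTCA) was in 2 of the 24, or 8.33%, and in 15.9% of all windows. A HOX-PBX motif (TGATNNAT or ATNNATCA) was in 4 of the 24, or 16.7%, and in 7.68% of all windows. The window of the other Hoxa10 start held no match. A match of letters is a description and not a binding site.

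In cultured ureters 30 of the 39 Hox genes gave signal well above background in all 8 pools. Among them were Hoxa10, Hoxa11 and Hoxa13, all genes from Hoxb2 to Hoxb9, the low-numbered Hoxc4, Hoxd3 and Hoxd4, and Hoxd10, Hoxd11 and Hoxd13. Hoxb1, Hoxb13, Hoxc11 and Hoxc12 were not well above background in any pool, with 0 of 8 each. Hoxa4 and Hoxc8 were well above background in 7 of 8 pools, Hoxc5 in 4, Hoxc13 in 3 and Hoxd12 in 2. The end genes of the Hoxb cluster were thus both dim, while the paralogs numbered 13 of the Hoxa and Hoxd clusters were detected throughout.

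Hoxa11 lay between 12.93 and 13.48 on the log2 scale over the 8 pools, with a median of 13.10. Hoxd11, its paralog, lay between 10.22 and 10.82 and Hoxa13 between 10.07 and 10.72. Hoxd13 lay between 7.74 and 8.85. Different probes bind with different strength, so these intensities cannot be ranked between genes.

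**Figure D1:**
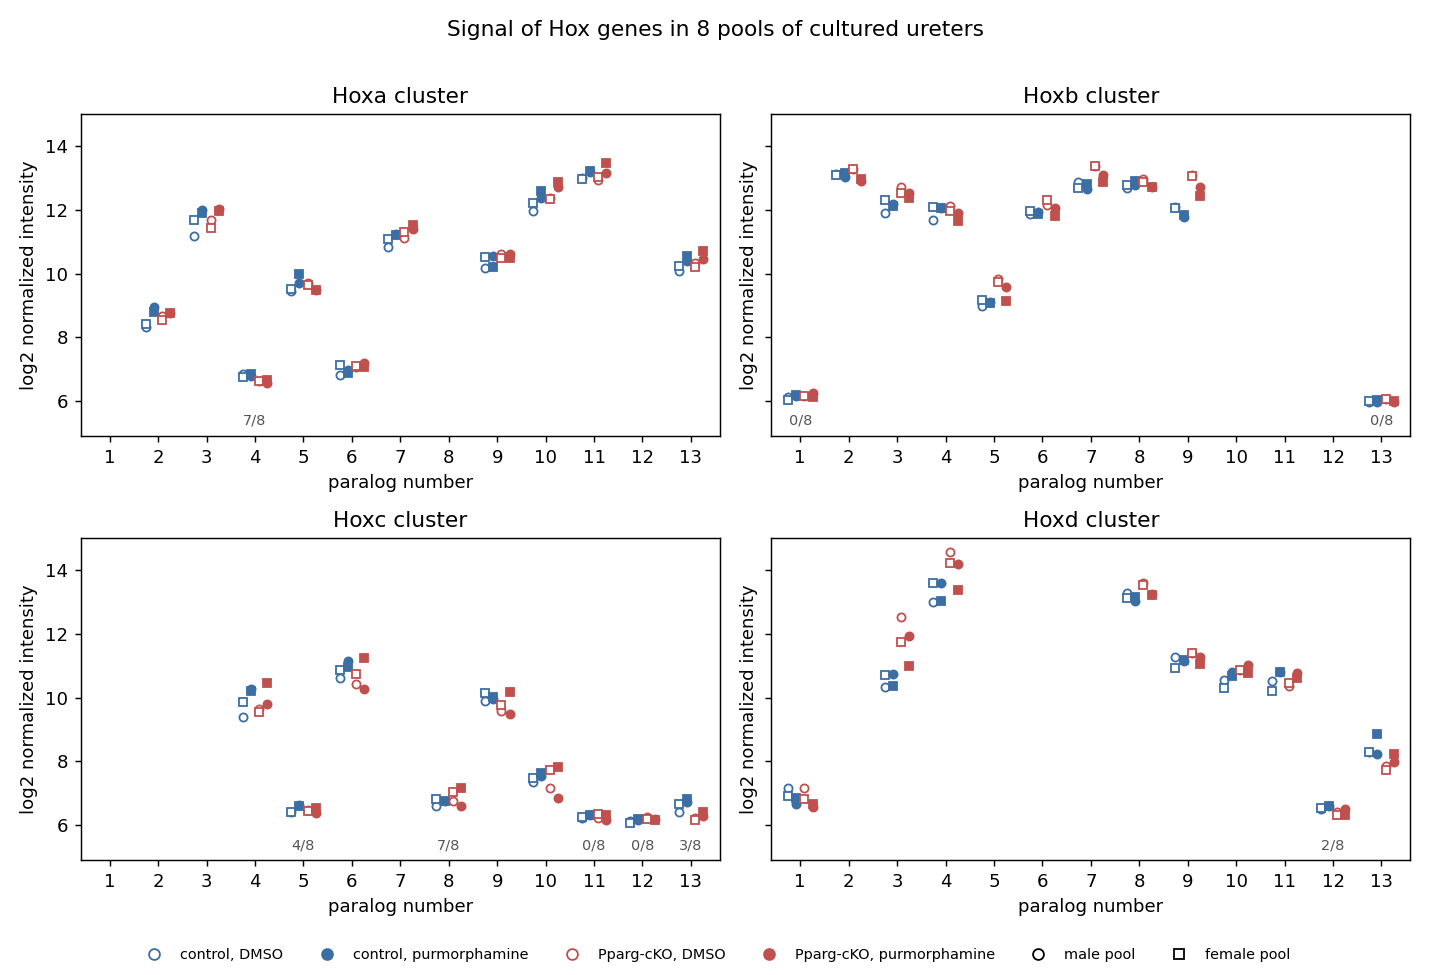
The plot shows log2 normalized intensity of the probe that stands for the Hox genes shown in the 8 pools, by cluster and paralog number, with colour for genotype, fill for treatment and shape for the sex of the pool. Numbers under the points give how many of the 8 pools were well above background where this was not all of them, and the 4 genes marked 0/8 sit between 5.96 and 6.34 in every pool.

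With DMSO, Pparg-cKO ureters had more Hoxb9 signal than control ureters, and Hoxd3, Hoxd4, Hoxb3, Hoxb5 and Hoxb7 were higher in both pairs without passing the test. Of the 35 Hox genes tested with limma, the adjusted p was under 0.05 for 1 that was higher and for 0 that were lower, where 2% of the 20231 genes tested were called higher and 1.91% lower. Before adjustment, 9 higher and 2 lower Hox genes of 35 had a p under 0.05, as had 8.01% of all genes on the higher and 7.76% on the lower side.

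Hoxb9, a gene of thoracic identity along the body axis, gave 12.09 and 12.07 in the male and female control pools and 13.10 and 13.05 in the Pparg-cKO pools. The groups did not overlap, and the gap was far wider than the spread within either. The log2 difference was 1.00 (SE 0.11, adjusted p = 0.00676), or 2.00-fold. The call was lost when the control male or the control female array was left out (adjusted p = 0.0787 and 0.0988), with log2 differences of 1.01 and 0.99.

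Hoxd3 and Hoxd4 are anterior genes, and the annotated span of Hoxd4 overlaps that of Hoxd3 on chromosome 2. Hoxd3 gave 10.34 and 10.70 in the control pools and 12.53 and 11.76 in the Pparg-cKO pools. Its log2 difference was 1.62 (SE 0.36, adjusted p = 0.0649), with 2.18 in the male pair and 1.06 in the female pair. Hoxd3 was the member with the largest mean difference, but its pools spread widely within the groups and the test did not call it. It was called without the Pparg-cKO female array (2.01, adjusted p = 0.0278).

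Hoxd4 gave 12.997 and 13.59 in the control pools and 14.57 and 14.23 in the Pparg-cKO pools, a log2 difference of 1.11 (SE 0.34, adjusted p = 0.160). The groups did not overlap, but the control pools themselves differed by about as much as the female pair did. In the control arrays Hoxd4 was 0.59 and 0.56 higher in the AlexaFluor647 channel than in the AlexaFluor555 channel, whichever treatment that channel held. In the Pparg-cKO arrays the same difference was -0.38 (male) and 0.85 (female), so its sign was not the same in all arrays. Both pools of a genotype pair had the same dye but were on different arrays, since each array held a single genotype. A dye difference that changes between arrays therefore enters the comparison of genotypes.

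Hoxb3, also an anterior gene, was the member whose probes disagreed in size. The homeobox probe gave 9.21 and 9.67 in control and 11.09 and 10.60 in Pparg-cKO, a log2 difference of 1.41 (SE 0.30, adjusted p = 0.0574 over all probes). The brighter probe, which stands for the gene, gave 11.91 and 12.29 against 12.72 and 12.54, a log2 difference of 0.53 (SE 0.15, adjusted p = 0.127). Both probes were higher in both pairs. Hoxb4, whose annotated span lies within that of Hoxb3, had a log2 difference of 0.15 (SE 0.16).

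Hoxb5 gave 8.99 and 9.15 in control and 9.83 and 9.73 in Pparg-cKO, a log2 difference of 0.71 (SE 0.16, adjusted p = 0.0612). Hoxb7 gave 12.87 and 12.69 against 13.37 and 13.37, a log2 difference of 0.59 (SE 0.12, adjusted p = 0.0568). The groups did not overlap for either gene. As a whole, 7 of the 8 Hoxb genes tested were higher in both pairs, with a median log2 difference of 0.42; among all genes tested 27.1% were higher in both pairs and the median was 0.00. Neighbouring Hox genes share a locus and are not independent of each other.

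The remaining members differed less. The largest mean difference in the Hoxa cluster was that of Hoxa7, which gave 10.83 and 11.10 in control and 11.12 and 11.31 in Pparg-cKO (log2 difference 0.26, adjusted p = 0.408). Its groups did not overlap, by a margin far smaller than the spread within either. Among the Hoxc genes detected in all pools it was Hoxc9, which gave 9.89 and 10.15 in control and 9.59 and 9.78 in Pparg-cKO (log2 difference -0.34, SE 0.22, adjusted p = 0.555). Its groups did not overlap, and it was chosen after its values were seen. Hoxc13 was well above background in 1 of the 2 control pools and in 0 of the 2 Pparg-cKO pools, and limma did not call it (adjusted p = 0.207). With the Pparg-cKO pools set to the lowest signal well above background, its normalized signal was 1.06-fold higher in control. As scaled processed signal it was at the floor of 15 in all of these pools. Within the Hoxd cluster Hoxd8 (0.36) and Hoxd10 (0.44) were higher and Hoxd13 (-0.49) was lower in both pairs, and the adjusted p of each was 0.123 or more.

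The methods of the study used a fold rule in place of a test, namely a change of 1.5-fold or more, of like sign in the male and the female pair, and a scaled signal above 100. Under this rule 5 of the 25 Hox genes bright enough were counted as higher and 0 as lower, where 2.59% of such genes were counted as higher and 2.92% as lower. The 5 were Hoxb3, Hoxb5, Hoxb9, Hoxd3 and Hoxd4. Hoxb3 was counted through its homeobox probe (4.23-fold and 2.06-fold), while its brighter probe gave 1.75-fold and 1.21-fold. Hoxd3 was 4.75-fold higher in the male pair and 2.16-fold in the female pair, and Hoxb9 was 2.03-fold and 2.02-fold higher. The rule allows for no spread beyond the agreement of both pairs.

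**Figure D2:**
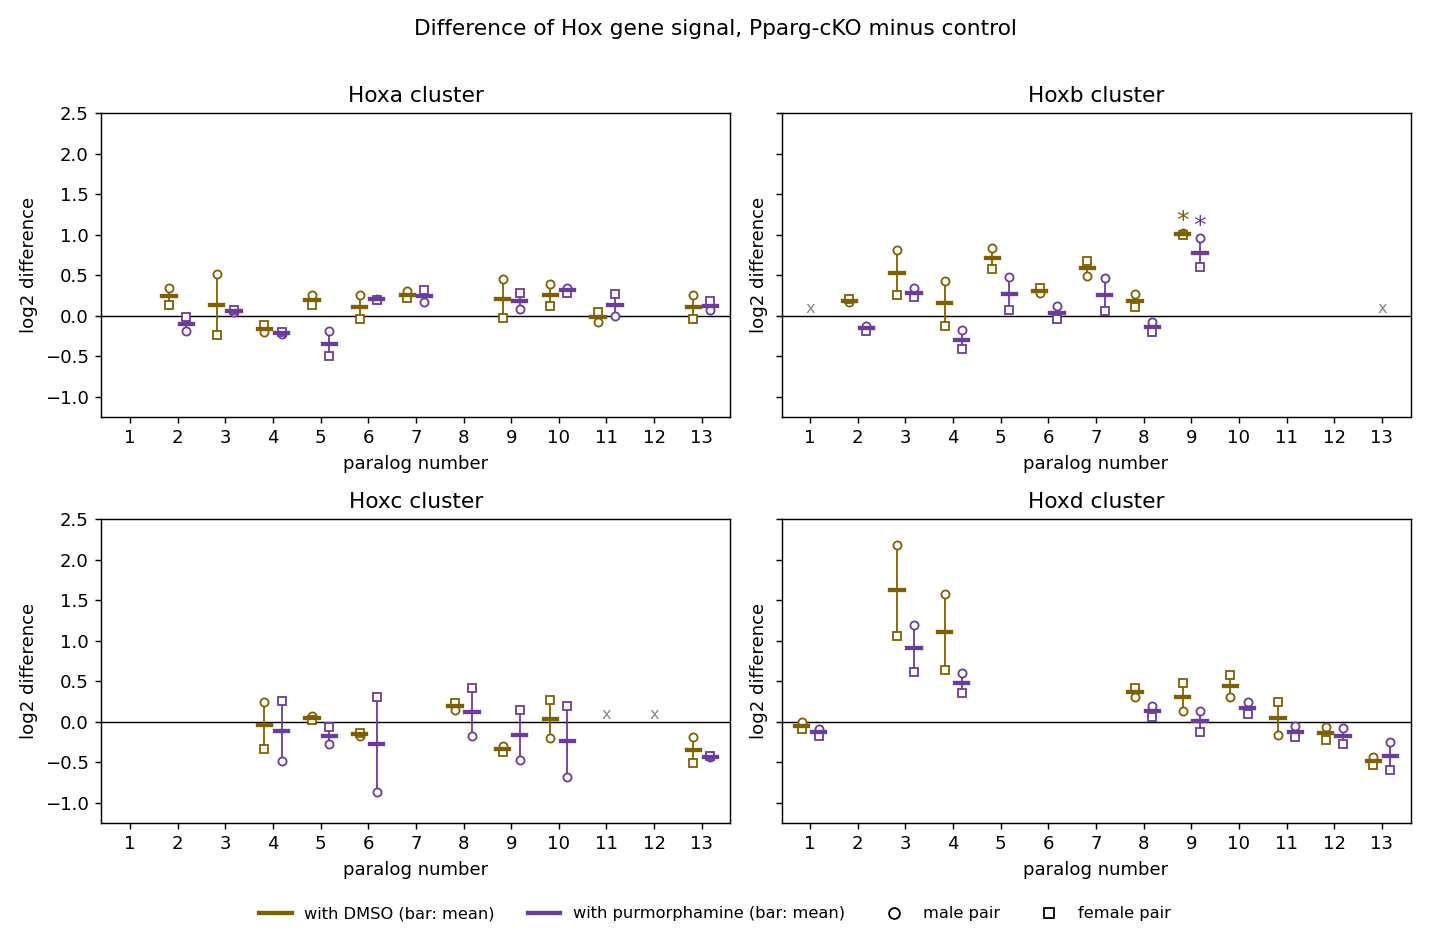
The plot shows the log2 difference of the Hox genes shown, Pparg-cKO minus control, by cluster and paralog number, with the male and female pair joined by a line, the mean as a bar, a star where the test called the gene and a grey x for the 4 genes not tested. With DMSO (brown) Hoxd3 has the largest mean, at 1.62, and Hoxb9, at 1.00, is the only gene with a star.

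With purmorphamine in the medium Hoxb9 again was the only Hox gene called between genotypes. It gave 11.76 and 11.84 in the control pools and 12.72 and 12.44 in the Pparg-cKO pools, a log2 difference of 0.78 (SE 0.11, adjusted p = 0.0215). The groups did not overlap. The test called 1 Hox gene higher and 0 lower, against a background of 1.24% higher and 1.9% lower. The call was lost when any 1 of the 4 arrays was left out, with adjusted p between 0.0567 and 0.212, and with the scanner software's processed signals (adjusted p = 0.0513).

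Hoxd3 gave 10.75 and 10.38 in control and 11.94 and 11.00 in Pparg-cKO with purmorphamine, a log2 difference of 0.90 (SE 0.36, adjusted p = 0.295). Hoxd4 gave 13.59 and 13.03 against 14.19 and 13.38, so that its groups overlapped. The homeobox probe of Hoxb3 gave 9.46 and 9.26 against 10.96 and 10.17. Hoxb5 gave 9.12 and 9.07 against 9.59 and 9.14, with the male Pparg-cKO pool well above the rest. The fold rule counted Hoxb3, Hoxb9 and Hoxd3, 3 of 25, as higher and 0 as lower, against 3.06% and 3.23% of bright genes, and Hoxb3 again through the homeobox probe alone.

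Over both treatments, which uses all 8 pools, 4 Hox genes were called higher in Pparg-cKO and 1 lower, against 3.98% and 5.05% of all genes. Hoxb9 differed by 0.89 (SE 0.08, adjusted p = 0.00184), and it was called in all 11 alternatives run. Hoxd3 differed by 1.26 (SE 0.26, adjusted p = 0.0319), Hoxb7 by 0.42 (SE 0.09, adjusted p = 0.0352) and Hoxb5 by 0.49 (SE 0.11, adjusted p = 0.0436). Hoxc13, a gene of the far caudal class, was called lower, by -0.39 (adjusted p = 0.0366). It gave 6.403 and 6.68 with DMSO and 6.74 and 6.83 with purmorphamine in control, and 6.22 and 6.17 with DMSO and 6.29 and 6.41 with purmorphamine in Pparg-cKO. It was well above background in 3 of 4 control pools and in 0 of 4 Pparg-cKO pools. Only the control purmorphamine group, with both pools well above background, admitted Hoxc13 to the test. The filter thus favoured a lower value in Pparg-cKO. With the Pparg-cKO pools set to the lowest signal well above background, its normalized signal was 1.15-fold higher in control. The control pools were used as measured, including a DMSO pool that was not well above background.

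The calls other than Hoxb9 depended on the arrays and the processing. Without the control male, the control female or the Pparg-cKO male array, Hoxb9 alone was called; without the Pparg-cKO female array, Hoxb5, Hoxb9 and Hoxd3 were called. With the processed signals Hoxb9 alone was called, and the adjusted p was 0.0571 for Hoxb7, 0.0685 for Hoxd3 and 0.0932 for Hoxb5, while the difference of Hoxc13 shrank to -0.04. Without the filter on dim probes Hoxd3 and Hoxb5 were not called (adjusted p = 0.0606 and 0.0641). The homeobox probe of Hoxb3 passed over both treatments (1.31, SE 0.21, adjusted p = 0.0142 over all probes) and the brighter probe did not (0.40, adjusted p = 0.0700); with the mean of all tested probes, Hoxb3 was called too.

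**Figure D3:**
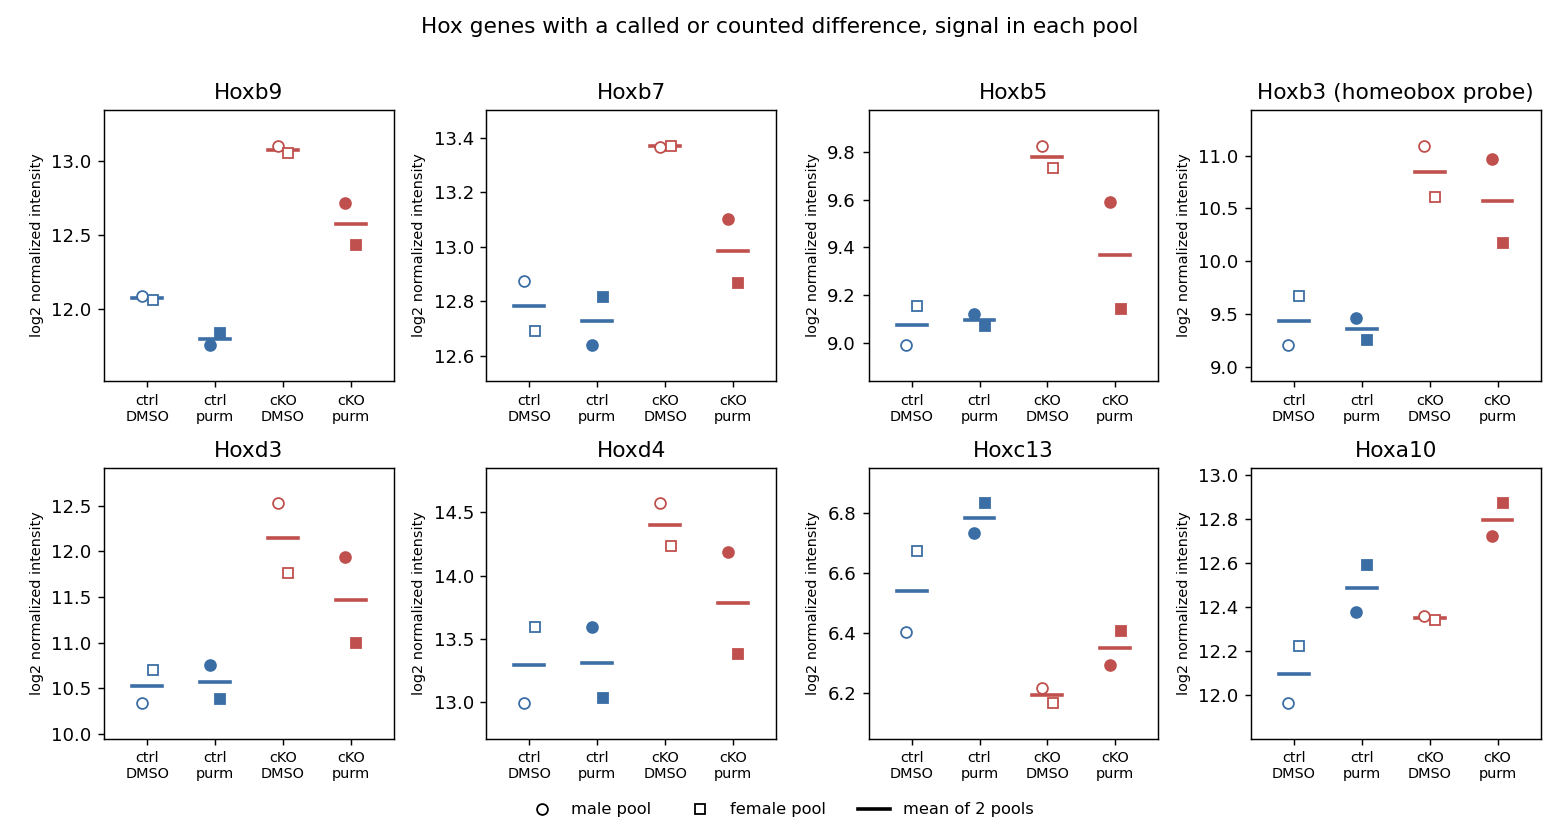
The plot shows log2 normalized intensity in each of the 8 pools for the 8 Hox genes with a called or counted difference, with a circle for the male pool, a square for the female pool and a bar for the mean of the 2 pools, each panel with its own scale. In the Hoxb9 panel both Pparg-cKO groups lie wholly above both control groups, and in the Hoxa10 panel the purmorphamine pools lie above the DMSO pools of the same genotype.

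Markers of other tissues moved with the genotype in the same pools. Of the 14 nephron and kidney stroma markers tested, from a list of 15, 7 were higher in Pparg-cKO with DMSO and 0 lower. Six2, a nephron progenitor gene, differed by 1.94, and Pax8, a gene of the nephric lineage, by 2.25. The summed log2 intensity of the list was 13.11 to 13.20 in the control DMSO pools and 14.49 to 14.56 in the Pparg-cKO DMSO pools. Slc12a3 of that list was not well above background, and Lhx1, Nphs1 and Slc12a1 were so in 2 of 8 pools. With purmorphamine, 7 of the 14 fell and 1, Foxd1, rose within Pparg-cKO, while the summed intensity was 14.86 to 15.10. Of the 11 urothelial markers, 1 was higher and 3 lower in Pparg-cKO with DMSO. Of the 5 collecting duct markers tested, from a list of 6, Foxi1, a gene of intercalated cells, was higher by 3.38 and Aqp3, a water channel that urothelium also makes, was lower by a log2 difference of -1.55. The summed log2 intensity of that list, in which Aqp3 is by far the brightest, was 13.95 to 14.22 against 15.42 to 15.64 in control. The part of such tissue in the Hox differences was not tested. In bulk RNA more cells of a type and more RNA per cell cannot be told apart.

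Purmorphamine was set against DMSO on the same array. No Hox gene was called in control or in Pparg-cKO by limma, at 0 of 35 higher and 0 of 35 lower in each. The background was 0.405% higher and 1.12% lower in control and 2.02% higher and 3.1% lower in Pparg-cKO. Before adjustment, p was under 0.05 for 7 Hox genes in control, all higher, and for 3 higher and 6 lower in Pparg-cKO. The shares over all genes were 9.77% higher and 9.84% lower in control and 9.85% higher and 12.4% lower in Pparg-cKO. The fold rule also counted 0 of 25 in either genotype and direction, against 2.76% and 3.69% of bright genes in control and 3.88% and 4.79% in Pparg-cKO.

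Over both genotypes, which uses all 4 arrays, Hoxa10 was called higher and Hoxb9 lower with purmorphamine. That is 1 Hox gene each way, where 6.32% of all genes were called higher and 7.87% lower. Hoxa10, a caudal gene known for its part in the reproductive tract, gave 11.97 and 12.23 with DMSO and 12.38 and 12.59 with purmorphamine in control, and 12.36 and 12.34 against 12.72 and 12.87 in Pparg-cKO. It was higher in 4 of 4 arrays, by a mean of 0.42 on the log2 scale (SE 0.07, adjusted p = 0.0279). Hoxb9 was lower in 4 of 4 arrays, by a mean log2 difference of -0.39 (SE 0.08, adjusted p = 0.0381), with -0.33 and -0.23 in the control arrays and -0.39 and -0.62 in the Pparg-cKO arrays.

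Both calls were lost when any 1 of the 4 arrays was left out, with adjusted p from 0.0563 to 0.241. With the processed signals neither was called, and with median centring in place of loess Hoxb9 was not called (-0.30, adjusted p = 0.187), while Hoxa3, Hoxa10, Hoxa13 and Hoxc4 were.

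Most Hoxa genes had a positive difference with purmorphamine, with 1 of them called over both genotypes. In control 8 of its 11 genes were higher in both arrays and 0 lower, with a median log2 difference of 0.26. In Pparg-cKO 8 were higher in both arrays and 1 lower, with a median of 0.17. Among all genes tested 30.9% were higher in both control arrays and 33.9% in both Pparg-cKO arrays.

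Hoxa3, an anterior gene known from the pharyngeal arches, had the largest mean in this cluster over both genotypes. It gave 11.17 and 11.67 with DMSO and 11.98 and 11.90 with purmorphamine in control, and 11.68 and 11.43 against 12.03 and 11.97 in Pparg-cKO. The treated and untreated pools did not overlap in either genotype, and the mean log2 difference was 0.48 (SE 0.12, adjusted p = 0.0593). It was called with median centring and without the control female array. The probe that stands for Hoxa3 overlaps, on the other strand, the site of the probe for the antisense RNA Hoxaas2. A dimmer second probe of Hoxa3 was well above background in 5 of 8 pools. Its mean log2 difference was 0.14 (SE 0.11, adjusted p = 0.495 over all probes). Treated and untreated pools overlapped for this second probe in both genotypes.

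In the Hoxc cluster, Hoxc4 had the largest mean difference. It gave 9.41 and 9.88 with DMSO and 10.28 and 10.21 with purmorphamine in control, and 9.65 and 9.54 against 9.79 and 10.46 in Pparg-cKO. The mean log2 difference was 0.57 (SE 0.16, adjusted p = 0.0855), with the same sign in all 4 arrays. It was called with median centring and without the Pparg-cKO male array.

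Among the paralogs numbered 10 to 13, 8 of the 9 tested were higher in both control arrays and 0 lower. In Pparg-cKO 7 were higher in both arrays and 0 lower, and with the processed signals these counts were 6 in control and 5 in Pparg-cKO. Among all genes tested 30.9% were higher in both control arrays and 33.9% in both Pparg-cKO arrays. Hoxc13 and Hoxd12 entered the test only through the control purmorphamine pools, so the filter favoured a higher value there. Hoxd11, the kidney paralog of the Hoxd cluster, gave 10.54 and 10.22 with DMSO and 10.82 and 10.82 with purmorphamine in control, and 10.37 and 10.45 against 10.77 and 10.62 in Pparg-cKO. Its mean log2 difference was 0.36 (SE 0.09, adjusted p = 0.0642). Its second probe gave 0.45 (SE 0.19, adjusted p = 0.202 over all probes).

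No Hoxb gene was called within a genotype. In Pparg-cKO all 8 genes tested were lower with purmorphamine in both arrays, or 7 with median centring in place of loess, with a median log2 difference of -0.32, where 36.1% of all genes were lower in both. In control 1 was higher in both arrays and 1 lower, with a median of 0.01; with median centring these counts became 6 and 1 and the median 0.19. The effect in Pparg-cKO minus that in control had a median of -0.32 over the 8 genes.

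Hoxd3 and Hoxd4 had a like pattern. Within Pparg-cKO Hoxd3 was lower by -0.58 and -0.76 and Hoxd4 by -0.38 and -0.85 in the male and female array, with adjusted p of 0.128 and 0.314. Hoxd3 was called lower there when either control array was left out of the fit. Within control, Hoxd3 differed by 0.41 and -0.32 and Hoxd4 by 0.59 and -0.56, opposite signs in arrays of opposite dye orientation. Hoxa5 was higher in both control arrays (0.25 and 0.47) and lower in both Pparg-cKO arrays (-0.19 and -0.17).

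The test of the difference between these effects called no Hox gene, and 0% of all genes in either direction. Hoxa5 (-0.54) and Hoxd3 (-0.72) had an unadjusted p under 0.05 and an adjusted p of 1.00. The Pparg-cKO DMSO pools enter both this comparison and the comparison of genotypes with DMSO, so that high values in these pools raise the one and lower the other.

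**Figure D4:**
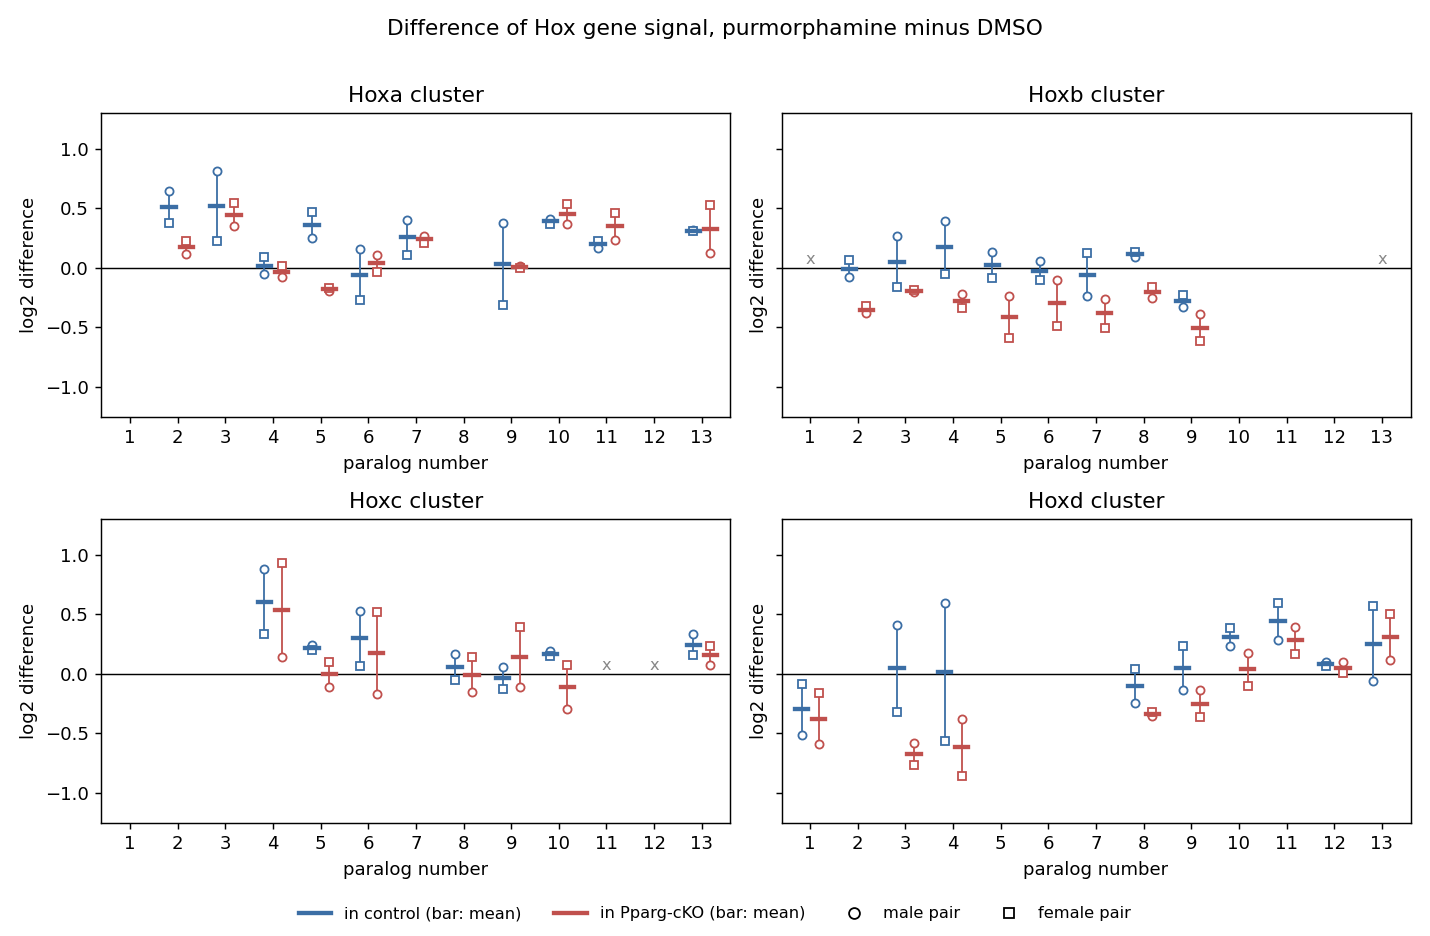
The plot shows the log2 difference of the Hox genes shown, purmorphamine minus DMSO, by cluster and paralog number, with control in blue, Pparg-cKO in red, the male and female array joined by a line, the mean as a bar and a grey x for the 4 genes not tested. All 8 red lines of the Hoxb cluster lie below 0 (7 of them with median centring), and most lines of the Hoxa cluster lie above it.

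Markers of other cells moved with purmorphamine too. Over both genotypes 8 of the 11 ureteric smooth muscle and mesenchyme markers rose and 1 fell, 4 of 5 endothelial markers and both skeletal muscle markers tested rose, and 5 of 6 leukocyte markers fell. Of the 11 urothelial markers 6 rose and 1 fell, and of the 14 nephron and kidney stroma markers 1 rose and 8 fell. The summed log2 intensity with DMSO and with purmorphamine in control was 12.94 to 13.55 and 14.30 to 14.40 for endothelium, and 17.51 to 17.85 and 16.89 to 17.38 for leukocytes. The part of such cells in the Hox differences was not tested.

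Partners and regulators of Hox genes were counted from a list chosen beside the members. Of the 9 cofactors of the Pbx, Meis and Pknox families, which bind DNA together with Hox proteins, Pbx3 rose in Pparg-cKO with DMSO by 0.74 (adjusted p = 0.0106) and 0 fell. Over both genotypes Meis1 (0.48, adjusted p = 0.0254) and Pknox2 (0.52, adjusted p = 0.0190) rose with purmorphamine. Pbx3 gave 13.04 and 12.89 in the control DMSO pools and 13.65 and 13.77 in the Pparg-cKO DMSO pools.

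Of the 9 upstream and chromatin regulators tested, from 13 listed, Cbx2, a Polycomb subunit, rose in Pparg-cKO with DMSO by 0.68 (adjusted p = 0.0164). It gave 10.94 and 10.95 in control and 11.60 and 11.65 in Pparg-cKO. Gmnn, which encodes geminin, a regulator of replication that also binds Hox proteins, fell with purmorphamine over both genotypes by a log2 difference of -0.79 (adjusted p = 0.0140). Cdx1, Cdx2, Cdx4 and Kmt2a were not well above background.

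The Hoxb cluster also gave a called non-coding RNA. Hoxb5os gave 10.32 and 10.18 in the control DMSO pools, 11.16 and 10.96 in the Pparg-cKO DMSO pools, 10.20 and 10.39 in the control purmorphamine pools and 10.30 and 10.49 in the Pparg-cKO purmorphamine pools. Only the Pparg-cKO DMSO pools were high. The log2 difference between genotypes with DMSO was 0.81 (SE 0.13, adjusted p = 0.0215). On mm9 its probe lies at chr11:96152394-96152453 on the minus strand, between the probes of Hoxb7 (chr11:96151211-96151270) and Hoxb6 (chr11:96162563-96162622). The 3 other RNAs of the clusters that could be tested, Hoxaas2, Hoxa11os and Hoxd3os1, were not called in this comparison.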

How the data were processed

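RNA pools of cultured ureters were hybridized by the authors to 4 two-colour Agilent arrays, 8 channels in all. The deposited scanner files hold spot intensities from Feature Extraction (12.2.0.7 in the file headers, 10.7.3.1 in the submitters' processing notes), score columns that flag outliers and spots above background, and log10 ratios, which the scripts compared with their own. The deposited value table holds a signed fold change per probe (a score). Its column medians are 1, its correlation with log ratios of the scaled processed signals was 0.995 to 0.998, and its scaling is not given in the sources used here.

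Spots were corrected with normexp (offset 50), normalized by loess within and Aquantile between arrays, and averaged over 4 spots per probe (limma 3.58.1, R 4.3.3). Genotypes were compared by fitting both channels separately (intraspot correlation 0.056), treatments by the log2 ratio within arrays. A probe was tested where both pools of a group were well above background in a majority of its spots, and the brightest probe stood for the gene. This left 27066 probes of 20231 genes, over which p-values were Benjamini-Hochberg adjusted. Members called or counted, and the member with the largest mean difference of each cluster, were given with every pool. The fold rule used processed signals scaled to a 75th percentile of 1500 with a floor of 15. Folds of Hoxc13 set its dim group to the lowest signal well above background. The tests were checked on simulated data. The number of arrays limits the precision. Members and lists were chosen with earlier results of these data known. The values of 1 member and 1 marker and the sequence of 1 probe are not reported here, and that member is left out of the figures.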

Additional observations from a re-analysis of the deposited data

How the results depend on the processing

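Counts below are Hox genes called, set against the counts in the report. Leaving out each array in turn gave 0 to 2 genes between genotypes with DMSO, 0 to 0 with purmorphamine and 1 to 3 over both treatments; it gave 0 to 0 for purmorphamine in control, 0 to 1 in Pparg-cKO, 0 to 1 over both genotypes and 0 to 0 for the difference of effects. Under the fold rule, leaving out 1 replicate number gave 6 to 7 genes with DMSO and 4 to 6 with purmorphamine between genotypes, and 3 to 6 in control and 1 to 6 in Pparg-cKO for treatment. A 2-fold limit left 3 genes with DMSO and 1 with purmorphamine. The processed signals gave 0 genes between genotypes with purmorphamine, 1 over both treatments and 0 for purmorphamine over both genotypes. Without the filter on dim probes 3 were called between genotypes over both treatments, and median centring gave 4 for purmorphamine over both genotypes. The median level of the 35 tested members was 10.58, and 9.10 as scaled processed signal, which is another scale.

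Replicate numbers stand for sex and dye orientation and are not a pairing. Deviations of same-numbered pools correlated at -0.15 between genotypes with DMSO and at 0.47 with purmorphamine. A replicate block gave 1, 0 and 14 genes between genotypes with DMSO, with purmorphamine and over both treatments, and 0, 0 and 3 for purmorphamine in control, in Pparg-cKO and over both genotypes. In the genotype fit its intraspot correlation was -0.70. With the numbers crossed, an alternative chosen after seeing the data, the counts were 1, 0 and 13. With the block and the dye as terms, also chosen after seeing the data, the correlation was 0.22, and the counts were 1, 0 and 1. Among all combinations of such a result and an alternative, the count stayed within 1.5 times in 54, those above included. It was lower in 24 and higher in 11, and the level moved in its 1 combination. The genes called or counted (Hoxa10, Hoxb3, Hoxb5, Hoxb7, Hoxb9, Hoxc13, Hoxd3 and Hoxd4) kept their sign in every alternative run for them; the other genes were not followed singly. Between genotypes with purmorphamine the adjusted p of Hoxb9 was 0.112 with the block, 0.104 with the numbers crossed and 0.0734 with block and dye. With 2 pools a group, the spread between pools limits what the test can call.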
